A study of Drosophila melanogaster with 46 samples.

Results

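The regions described here are PSC peaks in Drosophila melanogaster eye discs that had no Su(z)12 peak and lay at the ends of genes. A region was taken when a peak of the merged PSC list shared no base with a peak of the merged Su(z)12 list and its summit lay within 1000 bp of either end of an annotated gene. These regions were selected on measured values, the peak calls themselves, so that their binding is a description. Of 5999 PSC peaks on the 6 chromosome arms, 2470 (41.2%) met the rule. They lay near 3595 of 17684 annotated genes (20.3%). Because the gene table carries no strand, the end of a gene here means either its first or its last base.

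Polycomb repressive complex 1 (PRC1) contains PSC, Pc, Ph and the ubiquitin ligase Sce, and ubiquitinates histone H2A. Polycomb repressive complex 2 (PRC2), of which Su(z)12 is a subunit, methylates histone H3 at lysine 27, the mark that the chromodomain of Pc binds. Both complexes are known for keeping developmental regulators silent, and PRC1 subunits have also been found at active genes without PRC2. The series concerns PRC1 in development, and the question here is which genes carry PSC without Su(z)12 and how their transcripts differ when a PRC1 subunit is lost.

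The series has 46 samples in 19 groups, of which 14 samples enter here. Eye discs, the epithelial sacs of the larva from which eye and antenna arise, came from wandering third-instar larvae. ChIP-seq for PSC and for Su(z)12, each with a polyclonal rabbit antibody, used discs of strain W1118 Oregon-R in 2 replicates of about 500 pooled discs per protein. RNA-seq of polyadenylated RNA used about 150 pooled discs per replicate: 2 replicates of PCxt109 mutant discs, whose group name, Mutant_PcXT109_FRT2A, includes FRT2A, 4 of ph RNAi discs (cross of BL 64095 with VDRC50028) and 4 of white RNAi discs (cross of BL 64095 with BL33623). The ph RNAi and white RNAi discs share the BL 64095 parent. The labels name neither the tissue in which the RNAi was driven nor the control of the Pc mutant. Nothing in the labels states that replicates were dissected from different larvae, so p-values may measure technical spread alone. In RNA from whole discs, fewer cells of a type and less RNA per cell cannot be told apart. Depth per sample is unknown, since the deposited files hold peaks and fold changes without libraries.

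The libraries were checked against their labels. In the authors' deposited table for Pc, the log2 fold change of Pc itself was -1.64 with an SE of 0.41 (adjusted p = 0.00134); values after ± are SEs throughout. In the authors' deposited table for ph, the values of the RNAi targets were -0.80 ± 0.04 for ph-p (adjusted p = 1.11e-88) and -0.66 ± 0.05 for ph-d (adjusted p = 6.89e-42), and w, the target of the control RNAi, was higher by 0.79 ± 0.12 (adjusted p = 1.65e-10). All 10 eye disc markers were present in both deposited tables and all 10 were lower in both comparisons, with a median log2 fold change of -0.95 for Pc and -3.32 for ph in the authors' deposited tables. Of the markers of other tissues, 6 of 7 muscle, 5 of 6 fat body, 2 of 5 glial and 2 of 5 brain neuron markers were lower in the Pc comparison. Of 6 haemocyte markers, 1 was higher and 0 were lower there. In the ph comparison, 5 of 6 haemocyte markers were lower and 1 was higher, and 5 of 5 brain neuron markers were lower. For ph, 4 muscle markers were lower and 1 higher, 3 glial markers were lower and 2 higher, and 0 fat body markers were called, in the authors' deposited tables. The part of cell composition in the results that follow was not tested.

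The regions were narrow and of modest enrichment. Their median width was 291.5 bp (quartiles 236 and 398.75 bp, longest 3233 bp). The authors' fold of a peak, its enrichment over local background, had a median of 1.95 and ranged from 1.32 to 4.52, and 106 regions (4.29%) reached a fold of 3. The 893 PSC peaks near gene ends that did overlap a Su(z)12 peak were wider and stronger, at medians of 401 bp and a fold of 2.57, and 27.0% reached a fold of 3. This difference between the classes was not tested, because the absence of a Su(z)12 peak is part of the rule. PSC peaks without Su(z)12 inside genes (1320) and far from genes (684) had median folds of 1.79 and 1.80.

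Support from single replicates followed the fold. In the list of each PSC replicate, 892 regions (36.1%) overlapped a peak in both, 902 in replicate 1 only, 283 in replicate 2 only and 393 in neither. Of the PSC peaks with Su(z)12 near gene ends, 78.7% were found in both replicates. With the regions in 4 bands of rising fold, with 617 or 618 in each, 7.93%, 19.8%, 37.3% and 79.4% were found in both replicates. The list of replicate 1 held 5471 PSC peaks and that of replicate 2 held 3215.

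Most regions were far from any Su(z)12 peak. The median distance from a PSC summit to the nearest Su(z)12 summit was 32209.5 bp, 480 regions lay over 100 kb from one, and 247 (10%) lay within 2 kb. In the lists of the single Su(z)12 replicates, 30 regions overlapped a peak, 19 in replicate 1 and 11 in replicate 2, and 0 in both. By arm, 2L had 515 regions, 2R 436, 3L 511, 3R 579, X 396 and chromosome 4 had 33. On chromosome 4 the regions made up 19.0% of the PSC peaks, against 39.4% to 47.6% on the other arms, a description without a test.

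Summits gathered at the gene ends themselves. The median distance to the nearest end was 69 bp (quartiles 28 and 305 bp), with 58.6% of summits within 100 bp, 72.3% within 250 bp and 83.9% within 500 bp. The summit lay inside a gene for 48.1% of regions. At 1027 regions 1 gene had an end within 1000 bp, at 1112 there were 2 genes, and at 331 there were 3 to 6. The 64 regions just inside the limit, with summits 900 to 1000 bp away, had a median fold of 1.75, and the 63 PSC peaks just outside it, at 1001 to 1100 bp, had 1.78.

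**Figure D1:**
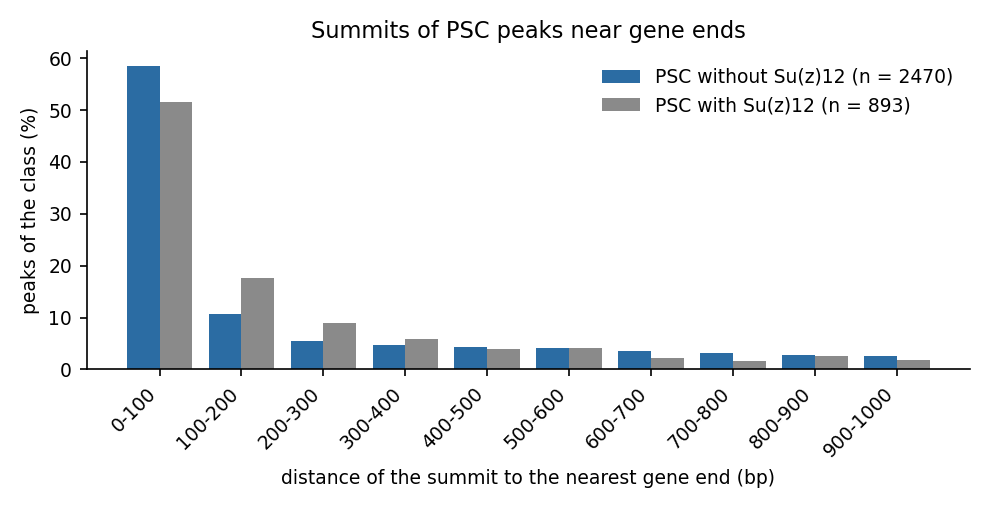
Distance from the PSC summit to the nearest gene end (x axis, bp, in steps of 100 bp) against the percent of peaks (y axis) for the 2470 regions without Su(z)12 (blue) and the 893 PSC peaks with Su(z)12 near gene ends (grey). The first bin, under 100 bp, holds the most peaks in both classes, with 58.5% of the regions without Su(z)12.

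The strongest regions lay at transfer RNA genes. The genes for tRNAs, the adaptors of translation, are transcribed by RNA polymerase III. Of 290 annotated tRNA genes, 185 (63.8%) had such a region at an end, against 2931 of 13922 protein-coding genes (21.1%), 289 of 1959 long non-coding RNA genes (14.8%), 46 of 269 snoRNA genes (17.1%) and 24 of 260 miRNA genes (9.23%). A PSC peak with Su(z)12 was at an end of 17 tRNA genes, and 94 had no PSC peak there. The 185 tRNA genes shared 132 regions, since many stand in clusters with up to 5 genes at a peak. These shares describe the peak calls that chose the regions and were not tested. The sources used here do not give how reads matching several near-identical tRNA copies were placed, so the split between copies is uncertain.

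The 132 regions at tRNA genes had a median fold of 2.84, against 1.95 for the 2118 regions at protein-coding genes without a tRNA gene. Of the 106 regions that reached a fold of 3, 52 (49.1%) lay at a tRNA gene, and so did 8 of the 10, 36 of the 50 and 49 of the 100 regions of highest fold. Of these 132 regions, 67.4% were found in both PSC replicates, against 36.1% of all regions. In the band of highest fold (2.26 to 4.52), it was 79.4% of all regions. The median folds of the tRNA regions were 4.21 in replicate 1 and 3.68 in replicate 2 where called. Their summits lay a median of 22.5 bp from a tRNA gene. Of the 132, 0 overlapped a peak of either Su(z)12 replicate, beside 30 of all 2470 regions (1.21%). The rule had already left out overlap with merged Su(z)12 peaks, so this count is no trait of tRNA regions.

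**Figure D2:**
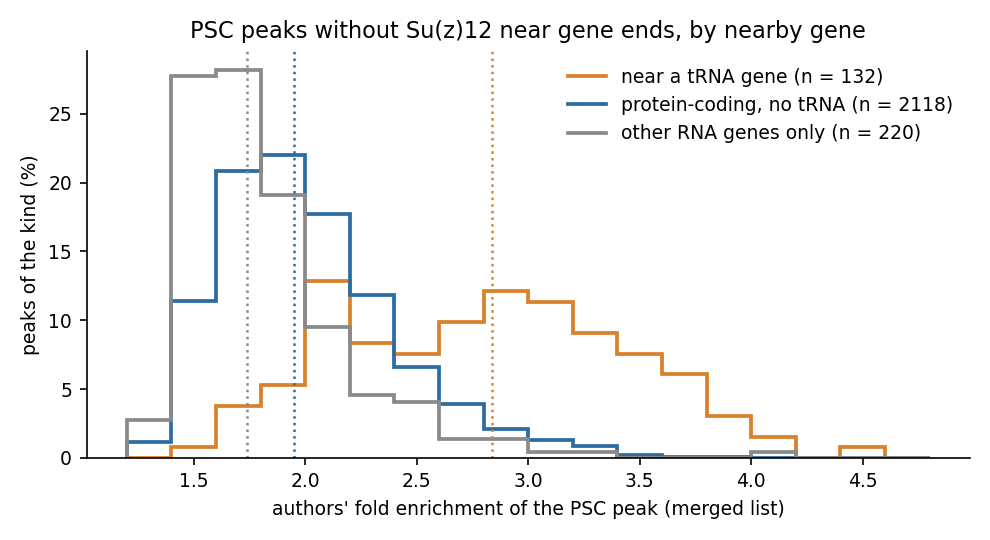
Authors' fold enrichment of each region in the merged PSC list (x axis) against the percent of regions of the kind (y axis), for 132 regions near a tRNA gene (orange), 2118 near a protein-coding gene and no tRNA gene (blue) and 220 near other RNA genes only (grey). Dotted lines are the medians of 2.84, 1.95 and 1.74.

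The region of highest fold, 4.52, on 2R from 19725465 to 19726409 (dm6), lay among the initiator methionine genes tRNA:iMet-CAT-1-2 and tRNA:iMet-CAT-1-1 and the glutamate gene tRNA:Glu-TTC-1-4, with its summit 58 bp from the first. The second, on 2R from 19728664 to 19729432 (fold 4.16), lay 16 bp from tRNA:Glu-CTC-2-2 and 691 bp from the 5S ribosomal RNA gene 5SrRNA:CR33452. The third, on 3R from 20912817 to 20913212 (fold 4.07), lay 160 bp from snoRNA:CG31191-a and had no tRNA gene near it. Next came a region on 3R from 17619584 to 17620430 (fold 4.04), 10 bp from tRNA:Ala-AGC-2-3, and one on X from 14014609 to 14015158 (fold 3.92), 7 bp from tRNA:Arg-TCG-2-1. The sixth, on 2L from 10295245 to 10295756 (fold 3.91), lay 110 bp from Hand, which encodes a bHLH factor of the heart, and 364 bp from CYLD, a deubiquitinase gene. It was one of the 30 regions that overlapped a Su(z)12 peak in a single replicate.

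By isotype, the 1 selenocysteine tRNA gene had a region, and among the other isotypes the share ran from 9 of 10 for asparagine and 9 of 11 for isoleucine to 9 of 20 for glycine and 7 of 17 for proline. By arm, it ran from 72 of 98 on 2R to 11 of 24 on X. The most tRNA genes at a region was 5, at 3 regions: on 2R from 6162338 to 6162694 (fold 3.33, arginine, asparagine and lysine tRNAs), on 2R from 13430645 to 13431422 (fold 2.98, isoleucine and leucine) and on 3L from 3096163 to 3096617 (fold 2.95, cysteine and lysine). Some other RNA genes read by RNA polymerase III, chosen after their values were seen, also had regions. The highest fold of a region within 1000 bp was 3.45 for snRNA:7SKa, 3.08 for snRNA:U6:96Ab and snRNA:U6:96Ac, and 2.44 for RNaseMRP:RNA. The nearest summits lay 4, 6, 14 and 38 bp from these genes. These 3 snRNA genes had 2 regions each, so the highest fold and the nearest summit can belong to different regions. The summit 6 bp from snRNA:U6:96Ab was also within 1000 bp of snRNA:U6:96Aa, whose highest fold was 2.38. At 7SLRNA:CR32864 the summit was 946 bp away and the fold 1.67. There was no region at snRNA:7SKb or snRNA:U6atac, and of 98 annotated rRNA genes, 5S genes among them, 1 had a region.

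None of the tRNA genes is listed in either deposited expression table, which came from polyadenylated RNA, so that their transcripts were not analysed here. Protein-coding neighbours that shared a tRNA region were counted. In the Pc comparison 2 of 49 tested were higher and 1 was lower, and in the ph comparison 17 of 49 were higher and 20 lower, in the authors' deposited tables. Together 6.12% of these neighbours were called for Pc and 75.5% for ph, against 9.88% and 66% of all genes tested.

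In Pc mutant discs, most genes near the regions did not pass the test. Of 3595 genes, 2840 are in the authors' deposited table for Pc and 2774 had an adjusted p. A gene was called at an adjusted p under 0.05 in the authors' DESeq2 Wald test. Of the 2774, 115 (4.15%) were higher and 216 (7.79%) lower, together 11.9%. Over all 11297 genes tested, 9.88% were called, 3.64% higher and 6.24% lower. The median log2 fold change was 0.01 for the genes near the regions and 0.02 for all genes in the authors' deposited table for Pc. Centred on the median of ribosomal protein genes, the calls among these genes were 78 higher and 321 lower, so that 19.5% of calls were higher in place of 34.7%. Without centring, 36.8% of the calls over all genes were higher. Centred counts over all genes are not given here, so whether that move is particular to these genes was not tested.

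Changes of at least 1 log2 unit were few. In the authors' deposited table for Pc, 27 of the genes (0.973%) rose and 41 (1.48%) fell by that much, against 1.5% and 2.43% of all genes. Genes near the regions were expressed at a higher level, with a median mean normalized count of 1589 against 555 for all genes, and 43.7% of them stood in the highest of 4 bands of that count, with equal numbers of all tested genes. Within the highest band, 4.45% of the genes near the regions were higher and 8.49% lower, and of all genes there 4.18% were higher and 7.47% lower. In the lowest band the shares were 2.41% and 2.41%, against 2.27% and 2.58%. The shares of these genes thus stood near those of all genes at the same level.

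In ph RNAi discs most of the genes were called, as were most genes in the table. Of the 2761 genes tested, 1012 (36.7%) were higher and 1113 (40.3%) lower, together 77.0%. Over all 11009 genes tested in the authors' deposited table for ph, 66% were called, 31.1% higher and 34.9% lower. The median log2 fold change was -0.04 for these genes and -0.06 for all genes in the authors' deposited table for ph. The ribosomal protein genes had a median of 0.40 there. Centred on the median of all genes, 1121 of the genes near the regions were higher and 1018 lower, which turns the balance of the calls (52.4% higher). Centred on the ribosomal protein median, 379 of the genes were higher and 1827 lower, so that 17.2% of calls were higher in place of 47.6%. Without centring, 47.1% of the calls over all genes were higher. Centred counts over all genes are not given here either, so these moves are not shown to be particular to the genes near the regions.

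In the authors' deposited table for ph, 133 genes (4.82%) rose and 461 (16.7%) fell by at least 1 log2 unit, against 5.05% and 19.4% of all genes. Within the highest band of mean count, 40.9% were higher and 43.7% lower, against 46.2% and 38.5% of all genes there. In the lowest band, 6.77% were higher and 26.3% lower, against 4.51% and 20.9%.

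**Figure D3:**
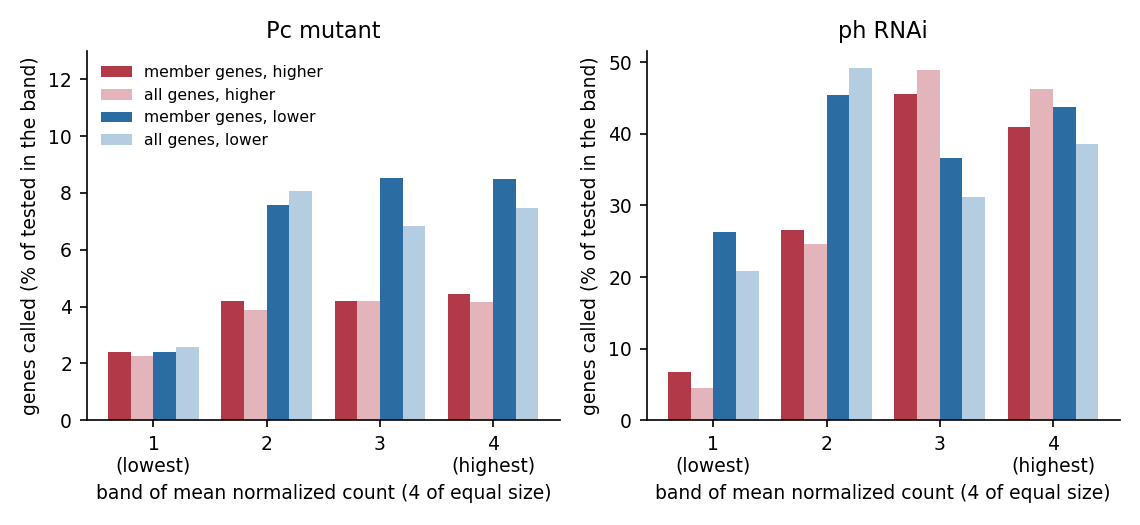
Percent of tested genes called higher (red) or lower (blue) at adjusted p under 0.05 (y axis) in each of 4 bands of mean normalized count (x axis), for genes near the regions (dark) and all genes (pale), in the Pc comparison (left) and the ph comparison (right). In the highest band of the Pc comparison 8.49% of genes near the regions and 7.47% of all genes were lower.

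Some of these genes had Su(z)12 elsewhere in the gene. Of the 3595 genes, 425 had a merged Su(z)12 peak in the gene or the 1000 bp around it and 3170 had none. By the authors' deposited table for Pc, 6.50% of the 354 tested genes with such a peak were higher and 10.5% lower, against 3.80% and 7.40% of the 2420 without. By the authors' deposited table for ph, 35.7% and 49.9% of the 353 with a peak were higher and lower, against 36.8% and 38.9% of the 2408 without. Genes with a Su(z)12 peak also had a higher median mean count, 2169 against 1479 in the Pc table, and the difference between the sets was not tested.

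There were 953 pairs of protein-coding genes that shared a region with no other protein-coding gene near it. Both genes were called at 14 of the 879 pairs tested, 11 in the same direction and 3 in opposite directions, in the authors' deposited table for Pc. In the authors' deposited table for ph both were called at 516 of 868 pairs, 291 in the same direction and 225 in opposite directions. For pairs that shared a PSC peak with Su(z)12, both were called at 3 of 284 for Pc, all in opposite directions, and at 185 of 281 for ph, 87 in the same direction and 98 in opposite directions. Taken singly, 11.9% of the tested protein-coding genes near the regions were called for Pc and 77.0% for ph. The pairs were not tested against these shares, nor the classes against each other.

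The 10 largest increases near the regions in Pc mutant discs were between 1.94 and 3.89 log2 units. Lmx1a, a LIM-homeobox gene, rose by 3.89 ± 0.49 (DESeq2, adjusted p = 6.18e-13) in the authors' deposited table for Pc. It had no Su(z)12 peak in or around it, and its 2 regions lay 85958 and 78430 bp from the nearest Su(z)12 summit. In the same authors' deposited table for Pc, tey, a regulator of muscle targeting, rose by 3.85 ± 0.55 and Mur89F, a mucin-related gene, by 3.69 ± 0.56. The cytokine gene upd2, a ligand of JAK/STAT signalling, rose by 2.94 ± 0.51 (adjusted p = 5.39e-07) and the ETS factor gene Ets21C, a target of JNK signalling, by 2.02 ± 0.50 in the authors' deposited table for Pc. Scr, a Hox gene, rose by 2.40 ± 0.40, and pdm2, a POU factor gene of neuroblasts, by 2.04 ± 0.60 in the authors' deposited table for Pc. The gene mth, which encodes a receptor linked to life span, rose by 2.39 ± 0.10 (adjusted p = 3.5e-122), and CG3106 and CG13921 rose by 2.28 ± 0.79 and 1.94 ± 0.14, in the authors' deposited table for Pc.

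The binding around these genes varied. Lmx1a, Mur89F, upd2, Ets21C, CG3106 and CG13921 had no Su(z)12 peak in the gene or the 1000 bp around it. Scr had 13 Su(z)12 peaks there, and its region (fold 1.67), 377 bp from a Su(z)12 summit, was found in neither PSC replicate. Of the others, tey had 6 Su(z)12 peaks, pdm2 had 3 and mth had 1. The regions at upd2 (X, 18243339 to 18243827, fold 2.43, 241 bp from the gene) and Ets21C (2L, 544575 to 544861, fold 2.19, 194 bp) were found in both PSC replicates. They lay 4062 and 3614 bp from the nearest Su(z)12 summit, against a median of 32209.5 bp for all regions.

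The 10 largest decreases near the regions in Pc mutant discs ran from -1.92 to -6.40 on the log2 scale. Tektin-C, a gene of ciliary and sperm axonemes, fell by 6.40 ± 0.33 (DESeq2, adjusted p = 5.99e-83) in the authors' deposited table for Pc. The cuticle protein gene Cpr62Bb fell by 5.32 ± 1.52, and CG14515 fell by 3.01 ± 0.80, in the authors' deposited table for Pc. Lsp1gamma, a storage protein of the fat body, fell by 2.85 ± 0.78 and Mlc1, a myosin light chain of muscle, fell by 1.97 ± 0.42 in the authors' deposited table for Pc. CG13032, CG17127, CG13912 and CG10064 and the cytochrome P450 gene Cyp6a22 fell, with values from -1.92 (CG10064) to -2.60 (CG13032) in the authors' deposited table for Pc. Markers of fat body and muscle were lower as whole lists in that comparison: their summed mean counts were 19130 over 6 fat body and 160576 over 7 muscle markers, with medians of -2.23 and -1.54 on the log2 scale in the authors' deposited table for Pc. The part of those tissues in these decreases was not tested.

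In ph RNAi discs the 10 largest increases near the regions reached from 4.39 to 9.64 log2 units. The pair-rule gene eve rose by 9.64 ± 0.66 (DESeq2, adjusted p = 6.46e-47) in the authors' deposited table for ph, and its value for Pc was -0.70 ± 1.02 (DESeq2, adjusted p = 0.842) in the authors' deposited table for Pc. Its region (2R, 9978787 to 9979439, fold 2.30) lay 93 bp from the gene, was found in both PSC replicates and was 6349 bp from the nearest Su(z)12 summit. The hindgut T-box gene byn rose by 9.07 ± 1.04, the heart gene tin by 4.81 ± 0.31 and the tracheal bHLH-PAS gene trh by 4.77 ± 0.21 in the authors' deposited table for ph. The receptor gene mthl8, a relative of mth, rose by 9.16 ± 0.55, CG12224 by 6.10 ± 0.57 and Sox100B, a SoxE gene of the gonad, by 5.89 ± 0.52 in the authors' deposited table for ph. Both tey and upd2 rose by 4.85, with SEs of 0.33 and 0.65, and Ets21C rose by 4.39 ± 0.72 in the authors' deposited table for ph. Among these, byn, mthl8, tin, trh, Sox100B and tey had 1 to 6 Su(z)12 peaks in or around the gene, and eve, CG12224, upd2 and Ets21C had 0. The region at byn lay 429 bp from the nearest Su(z)12 summit.

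The 10 largest decreases near the regions in ph RNAi discs ran from -5.94 to -9.14 on the log2 scale. Hr3, an ecdysone-induced nuclear receptor gene, fell by 9.14 ± 1.07 (DESeq2, adjusted p = 5.16e-17) in the authors' deposited table for ph. The rhomboid protease gene ru, which releases EGFR ligands in the eye, fell by 7.55 ± 0.83 in the authors' deposited table for ph. The same authors' deposited table for ph had -6.08 ± 0.99 for phyl, needed for R7 and sensory cell fates, and -5.94 ± 0.97 for the zinc finger gene sens, which acts in R8. The homeobox gene Hmx fell by 7.32 ± 0.88 in the authors' deposited table for ph. The serpin genes Spn100A and Spn43Aa, the acetylcholine receptor gene nAChRalpha7, the synaptotagmin gene Sytbeta and CG12481 fell, with values from -5.94 (Sytbeta) to -6.78 (Spn100A) in the authors' deposited table for ph. Among the decreases named here, nAChRalpha7 and Sytbeta had 1 Su(z)12 peak each in or around the gene.

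**Figure D4:**
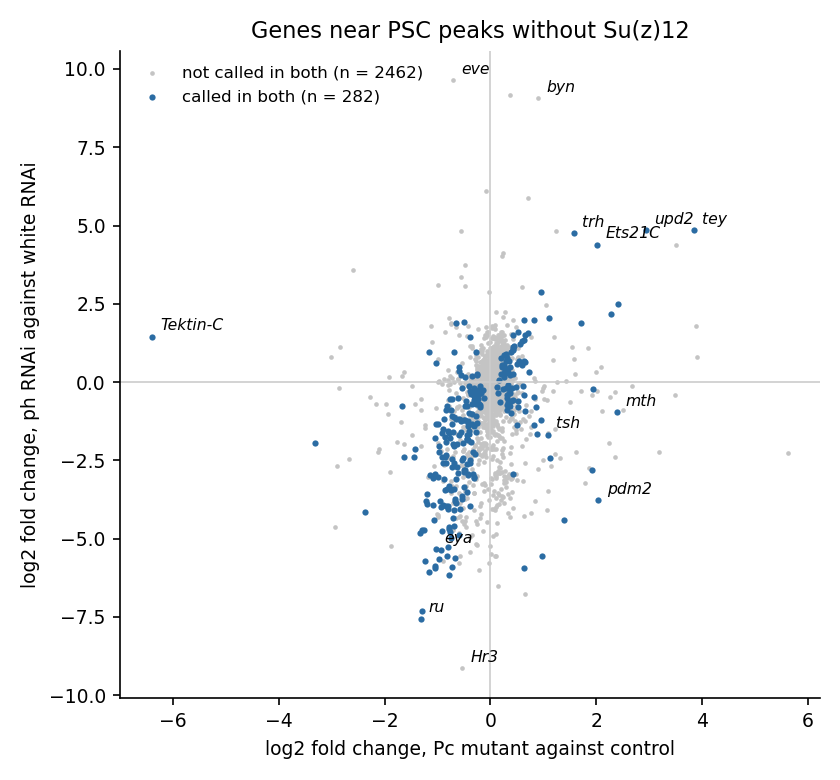
Log2 fold change in the Pc mutant (x axis) against that in ph RNAi discs (y axis), from the authors' deposited tables, for the 2744 genes near the regions tested in both. Blue points are the 282 called in both comparisons; eve, byn and Hr3 lie far from 0 for ph alone, and Tektin-C for Pc.

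The difference between both responses was tested per gene by a z test, with Benjamini-Hochberg adjustment over 10588 genes. It assumes that the comparisons share no library, which the labels do not settle. It passed for 1553 of the 2744 genes tested (56.6%), against 49.8% of all genes, with the Pc value above the ph value for 843 and below it for 710. Both comparisons called 282 of these genes, of which 52 rose in both and 173 fell in both. Another 42 rose with Pc and fell with ph, and 15 fell with Pc and rose with ph. Neither comparison called 578. The same counts over all genes were not made, so whether these patterns are particular to genes near the regions was not tested.

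Of the genes that rose in Pc mutant and fell in ph RNAi discs, 5 are named here. The gene tsh, a zinc finger selector of the trunk and of the eye margin, rose by 1.09 ± 0.17 for Pc and fell by 1.68 ± 0.10 for ph in the authors' deposited tables (difference 2.77 ± 0.19, adjusted p = 6.91e-45). The gap gene kni rose by 0.88 ± 0.12 and fell by 1.66 ± 0.12 in the authors' deposited tables. For mth, the fall with ph was 0.96 ± 0.03 in the authors' deposited table for ph. Past1, an EHD family gene of endocytosis, and CG10939 rose by 0.33 and 0.30 for Pc and fell for ph, with -0.64 and -0.73, in the authors' deposited tables. In the opposite pattern stood Tektin-C, which rose by 1.45 ± 0.62 for ph at a mean count of 8.03, and the lipid regulator SREBP, which fell by 0.27 ± 0.06 and rose by 0.95 ± 0.04, in the authors' deposited tables. The bZIP gene Pdp1, the zinc finger gene peb and the chitinase gene Cht6 fell for Pc, with -0.50, -1.04 and -0.39, and rose by 1.93, 0.61 and 1.43 for ph in the authors' deposited tables.

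Among genes that rose in both, Mcm5, a subunit of the replicative helicase, had 0.66 ± 0.11 and 1.51 ± 0.04, and the RNA-binding protein gene Imp had 0.60 ± 0.13 and 1.30 ± 0.04 in the authors' deposited tables. The head gap gene btd rose by 0.95 ± 0.25 and 2.88 ± 0.11, the telomere capping gene HipHop by 0.42 and 1.50 and CG8468 by 0.52 and 1.60 in the authors' deposited tables. Among genes that fell in both, elav, the neuronal RNA-binding protein, had -0.86 ± 0.13 and -1.76 ± 0.05, and B-H2, a homeobox gene of photoreceptors R1 and R6, had -0.79 ± 0.17 and -3.30 ± 0.08 in the authors' deposited tables. The head selector oc (-0.42 and -1.40) and the growth factor gene miple1 (-0.39 and -2.59) also fell in both in the authors' deposited tables.

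Some genes that build the Polycomb machinery carried regions themselves. For PRC1 they were Psc, ph-p and Sce, 3 of 7 subunits listed. Of all annotated genes 20.3% had a region. In the highest band of mean count it was 42.9% of all genes tested for Pc and 44.0% for ph. The lists were not tested against these shares. Psc had 2 regions beside 3 Su(z)12 peaks and ph-p had 1 beside 4, while Sce had 1 region (fold 2.48, 19 bp from the gene) and no Su(z)12 peak. Both Psc regions overlapped a PSC replicate 1 peak of the same fold, 3.09, so they may be parts of 1 peak. They lay 809 and 1361 bp from a Su(z)12 summit. The ph-p region, of merged fold 2.05, lay 969 bp from a Su(z)12 summit and overlapped a PSC replicate 1 peak of fold 6.71. By DESeq2, 0 of the 3 were called in the Pc comparison, and 0 at an unadjusted p under 0.05, with values of 0.20 ± 0.16 for Psc, -0.22 ± 0.14 for ph-p and 0.01 ± 0.10 for Sce in the authors' deposited table for Pc. With ph RNAi, Psc rose by 1.59 ± 0.07 (DESeq2, adjusted p = 1.53e-118) in the authors' deposited table for ph, while Sce had -0.06 ± 0.04 and was not called there. Of all 7 subunits, 1 rose and 2 fell for Pc, and 2 rose and 3 fell for ph.

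For PRC2 and the DNA-binding complex PhoRC, 7 of 11 genes had a region, and none of the 7 had a Su(z)12 peak in or around it. They were Su(z)12 itself, esc, Caf1-55, Pcl, jing, Sfmbt and pho. DESeq2 called 0 of the 7 for Pc, and 2, esc and jing, at an unadjusted p under 0.05. In ph RNAi discs 5 rose and 1 fell in the authors' deposited table for ph, and centred on the ribosomal protein median 3 were higher and 4 lower. Of all 11 listed, 0 were called for Pc, and 7 rose and 1 fell for ph, where 66% of all genes tested were called. The WD40 subunit gene esc rose by 1.52 ± 0.06 (adjusted p = 1.3e-154), Su(z)12 by 0.63 ± 0.04 and the histone chaperone gene Caf1-55 by 0.61 ± 0.03 in the authors' deposited table for ph. Pcl, a PRC2 cofactor, and Sfmbt, a PhoRC subunit, rose by 0.22 each, a direction that reverses with that centring, and jing, a PRC2-associated zinc finger gene, fell by 0.48 ± 0.03 in the authors' deposited table for ph. The region at pho (chromosome 4, 1181530 to 1182158, fold 2.93) was the strongest of the 7, and pho had 0.11 ± 0.06 (DESeq2, adjusted p = 0.112) in the authors' deposited table for ph.

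Of the insulator and architectural protein genes 6 of 18 had a region: Chro, pzg, su(Hw), mod(mdg4), z and cg. All 6 were higher in ph RNAi discs, by 0.13 (mod(mdg4)) to 0.27 (su(Hw)) in the authors' deposited table for ph, and all 6 reversed to lower when centred on the ribosomal protein median. For Pc, DESeq2 called 0 of the 6, and 0 at an unadjusted p under 0.05. Of the trithorax group genes, which oppose Polycomb silencing, 8 of 18 had a region. DESeq2 called 0 of these for Pc, and 0 at an unadjusted p under 0.05, and for ph 3 rose and 1 fell. The remodeller gene Iswi rose by 0.35 ± 0.02 and the BAP subunit gene osa by 0.38 ± 0.04, both reversed with that centring, and the Mediator gene skd fell by 0.39 ± 0.04, in the authors' deposited table for ph. Under that centring 0 of the 8 were higher and 7 lower. Over the whole lists, 14 of 18 insulator genes rose and 1 fell for ph, and 7 of 18 trithorax group genes rose and 3 fell.

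Retinal genes fell in both comparisons more often than they rose, near the regions and over the whole lists alike. Of the retinal determination genes, which commit cells to the eye, 7 of 12 had a region, and in the Pc comparison 4 fell and 1 rose, while in the ph comparison 6 fell. Of all 12 listed, 8 fell and 1 rose for Pc, and 10 fell and 1 rose for ph. The medians of the 7 were -0.86 and -2.13, beside -0.78 and -2.04 over the whole list, in the authors' deposited tables. By the authors' deposited tables, eya fell in both (-1.03 ± 0.21 and -5.33 ± 1.04), as did ey (-0.86 ± 0.18 and -2.40 ± 0.12) and dan (-1.42 ± 0.28 and -2.13 ± 0.09). The homeobox gene hth, a partner of tsh in the undifferentiated eye, fell by 1.94 ± 0.09 for ph, and had -0.14 ± 0.11 for Pc, in the authors' deposited tables. The gene eya had 3 regions, the one of highest fold (2.54) 59 bp from the gene and 75753 bp from the nearest Su(z)12 summit, and the others 75033 and 94516 bp from one. Conversely ey had 4 Su(z)12 peaks in or around it.

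Photoreceptor and cone cell genes had regions at 8 of 19, and 7 of the 8 fell for Pc and all 8 for ph in the authors' deposited tables. The fibrinogen-related gene sca, which spaces R8 cells, fell in both (-0.68 ± 0.11 and -3.72 ± 0.15), as did the Runx gene lz (-0.94 ± 0.16 and -5.38 ± 0.72), in the authors' deposited tables. Across all 19 listed genes, with or without a region, 13 of 18 tested fell for Pc and 18 of 19 for ph. The medians of the 8 were -0.82 and -3.51, beside -0.83 and -4.17 over the whole list, in the authors' deposited tables.

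In the Notch pathway, which sets photoreceptor spacing, 10 of 17 genes had a region; 3 fell and 1 rose for Pc, and 6 fell and 2 rose for ph, or 9 and 1 when centred on the ribosomal protein median. Of all 17, 3 fell and 1 rose for Pc, and 10 fell and 3 rose for ph. The ligand gene Dl (-0.43 ± 0.09 and -1.31 ± 0.04), the ubiquitin ligase gene neur (-0.68 ± 0.16 and -1.12 ± 0.06) and the presenilin gene Psn (-0.32 ± 0.08 and -0.43 ± 0.03) fell in both in the authors' deposited tables. The metalloprotease gene kuz, which cleaves Notch, fell by 0.49 ± 0.03 for ph in the authors' deposited table for ph. Of the Notch target genes of the E(spl) complex, 7 of 11 had a region and none had a Su(z)12 peak; 4 fell for Pc and 6 for ph, and of all 11 it was 7 and 9. Those that fell in both were E(spl)m4-BFM (-1.23 ± 0.24 and -5.70 ± 0.63), E(spl)m7-HLH (-0.68 ± 0.15 and -3.79 ± 0.16) and E(spl)mdelta-HLH (-0.89 ± 0.21 and -3.91 ± 0.31), among others, in the authors' deposited tables. E(spl)m2-BFM fell by 2.63 ± 0.09 in the authors' deposited table for ph. The regions at these named E(spl) genes had folds of 1.68 to 1.90 and were found in PSC replicate 1 only. The E(spl) genes are related and lie in 1 cluster, so 1 region can count for several neighbours. The sources used here do not give how reads shared by these genes were counted.

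In the EGFR pathway, which recruits photoreceptors, 13 of 20 genes had a region; 6 fell and 1 rose for Pc, and 9 fell and 2 rose for ph. Of all 20, 7 fell and 1 rose for Pc, and 15 fell and 3 rose for ph. The ETS repressor gene aop fell in both, with -0.70 ± 0.09 and -1.60 ± 0.06, as did the ETS activator gene pnt with -0.73 ± 0.13 and -0.53 ± 0.05 and the secreted inhibitor gene aos with -0.50 ± 0.11 and -3.34 ± 0.29 in the authors' deposited tables. The receptor gene Egfr fell by 1.70 ± 0.06 for ph, with -0.06 ± 0.10 for Pc, in the authors' deposited tables. The neuregulin-like ligand gene vn rose by 0.63 ± 0.16 and 1.35 ± 0.09, and ru had -1.32 ± 0.36 for Pc, called lower, in the authors' deposited tables.

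Of the Hippo and Fat pathway genes, which restrain growth, 12 of 17 had a region. DESeq2 called 0 of the 12 for Pc, and 2 at an unadjusted p under 0.05, and for ph 9 fell and 1 rose, or 12 and 0 when centred on the ribosomal protein median. Of all 17, 1 rose for Pc, and 10 fell and 2 rose for ph. The kinase gene wts fell by 0.76 ± 0.04, the FERM gene ex fell by 0.52 ± 0.05 and the caspase inhibitor gene Diap1, a target of the pathway, fell by 1.33 ± 0.05 in the authors' deposited table for ph. Of JNK and wound genes, 7 of 16 had a region; 2 fell for Pc, and 4 fell and 2 rose for ph, or 5 and 1 with that centring. The whole list was balanced, with 2 higher and 2 lower for Pc and 7 higher and 7 lower for ph, and its ph median was 0.06 against -0.22 for the 7 genes in the authors' deposited table for ph. The matrix metalloprotease gene Mmp2 fell in both (-0.78 ± 0.14 and -4.64 ± 0.52), as did the TNF ligand gene egr (-0.89 ± 0.20 and -2.57 ± 0.19), in the authors' deposited tables. The TNF receptor gene wgn fell by 3.01 ± 0.18 and puc, the phosphatase induced by JNK signalling, rose by 1.24 ± 0.12 in the authors' deposited table for ph.

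Of apoptosis genes, 4 of 14 had a region; 2 rose for Pc, and 1 rose and 3 fell for ph. Of all 14, 2 rose for Pc, and 3 rose and 7 fell for ph. The cell death gene rpr rose by 0.83 ± 0.14 and 1.97 ± 0.10, while hid rose by 0.66 ± 0.18 and fell by 0.94 ± 0.06 in the authors' deposited tables. Of JAK/STAT genes 2 of 10 had a region, upd2 and the feedback inhibitor gene Socs36E, which rose by 1.11 ± 0.11 for ph and had 0.45 ± 0.22 for Pc in the authors' deposited tables. Of all 10, 5 rose for Pc, and 8 rose and 2 fell for ph. Of ecdysone response genes 5 of 13 had a region. DESeq2 called 0 of the 5 for Pc, and 0 at an unadjusted p under 0.05, and for ph 2 rose and 3 fell, or 1 and 3 when centred on the ribosomal protein median. Of all 13, 1 rose for Pc, and 2 rose and 9 fell for ph. The transcription factor gene br fell by 1.09 ± 0.04 and the nuclear receptor gene ftz-f1 rose by 2.23 ± 0.13 in the authors' deposited table for ph.

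DNA replication and cell cycle genes had regions at 15 of 31; 1 rose and 2 fell for Pc, and 11 rose and 2 fell for ph, or 9 and 5 when centred on the ribosomal protein median. Of all 31, 2 rose and 2 fell for Pc, and 25 rose and 3 fell for ph. The ribonucleotide reductase gene RnrL rose by 1.40 ± 0.04 and the replication licensing gene dup by 1.47 ± 0.03 in the authors' deposited table for ph. The phosphatase gene stg and the Cdk inhibitor gene dap fell, with -0.61 ± 0.13 and -0.47 ± 0.10, in the authors' deposited table for Pc. Ribosomal protein genes had regions at 17 of 30, with 0 called by DESeq2 for Pc (0 at an unadjusted p under 0.05). All 17 were higher for ph, with a median of 0.38 in the authors' deposited table for ph. The whole list did the same: 0 of 30 were called for Pc, and all 30 were higher for ph, with a median of 0.40. Centred on the median of that list, 2 of the 17 were higher and 5 lower. Reads shared with related copies of these genes may be split, and the sources used here do not give how they were counted.

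Proteasome subunit genes had regions at 12 of 31, with 0 called by DESeq2 for Pc (0 at an unadjusted p under 0.05) and 6 higher for ph, and centred on the ribosomal protein median 10 were lower and 0 higher. Splicing factor genes had regions at 10 of 24, with 0 called by DESeq2 for Pc (0 at an unadjusted p under 0.05), 7 higher and 1 lower for ph, and 2 higher and 7 lower with that centring. For ph, 15 of all 30 tested proteasome genes rose, and 17 of all 24 splicing factor genes rose and 2 fell. The Sm protein gene SmD2 rose by 0.66 ± 0.03 in the authors' deposited table for ph. Heat shock genes had regions at 9 of 15; DESeq2 called 0 of 8 tested for Pc, and 0 at an unadjusted p under 0.05, and for ph 1 rose and 4 fell, or 0 and 6 with that centring, while of the whole list 4 rose and 4 fell. The small heat shock protein gene Hsp27, with 3 regions, fell by 2.14 ± 0.10 in the authors' deposited table for ph. Each of the 3 overlapped a PSC replicate 1 peak of the same fold, 2.29, and no replicate 2 peak, so they may be parts of 1 peak. Epithelial polarity genes had regions at 6 of 15. DESeq2 called 0 of the 6 for Pc, and 2 at an unadjusted p under 0.05, and for ph 3 rose and 3 fell, or 1 and 4 with that centring. Of all 15, 5 rose and 9 fell for ph. The tumour suppressor gene l(2)gl rose by 0.84 ± 0.05 and the E-cadherin gene shg fell by 0.87 ± 0.06 in the authors' deposited table for ph.

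Lists of other cell types differed in how many genes had a region. Muscle genes had them at 2 of 17, Mlc1 and Mlc2, both lower for Pc, while DESeq2 called 0 of these for ph (0 at an unadjusted p under 0.05). Of all 17 muscle genes, 15 fell for Pc, and 9 fell and 1 rose for ph. Fat body genes had 1 of 12, Lsp1gamma, haemocyte genes 0 of 14 and brain neuron genes 2 of 15, of which 1, dpn, fell in both. Over the whole lists for Pc, 6 fat body genes fell, 1 haemocyte gene fell and 1 rose, and 2 brain neuron genes fell and 1 rose. For ph, 1 fat body gene fell and 1 rose, 12 haemocyte genes fell and 1 rose, and 11 brain neuron genes fell. Glial genes had regions at 5 of 10; 2 fell for Pc, and 4 fell and 1 rose for ph. Of all 10, 2 fell for Pc, and 6 fell and 4 rose for ph. The septate junction gene Gli fell in both (-0.25 ± 0.06 and -1.31 ± 0.05) in the authors' deposited tables, and repo, the glial selector, fell by 0.99 ± 0.10 in the authors' deposited table for ph.

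**Figure D5:**
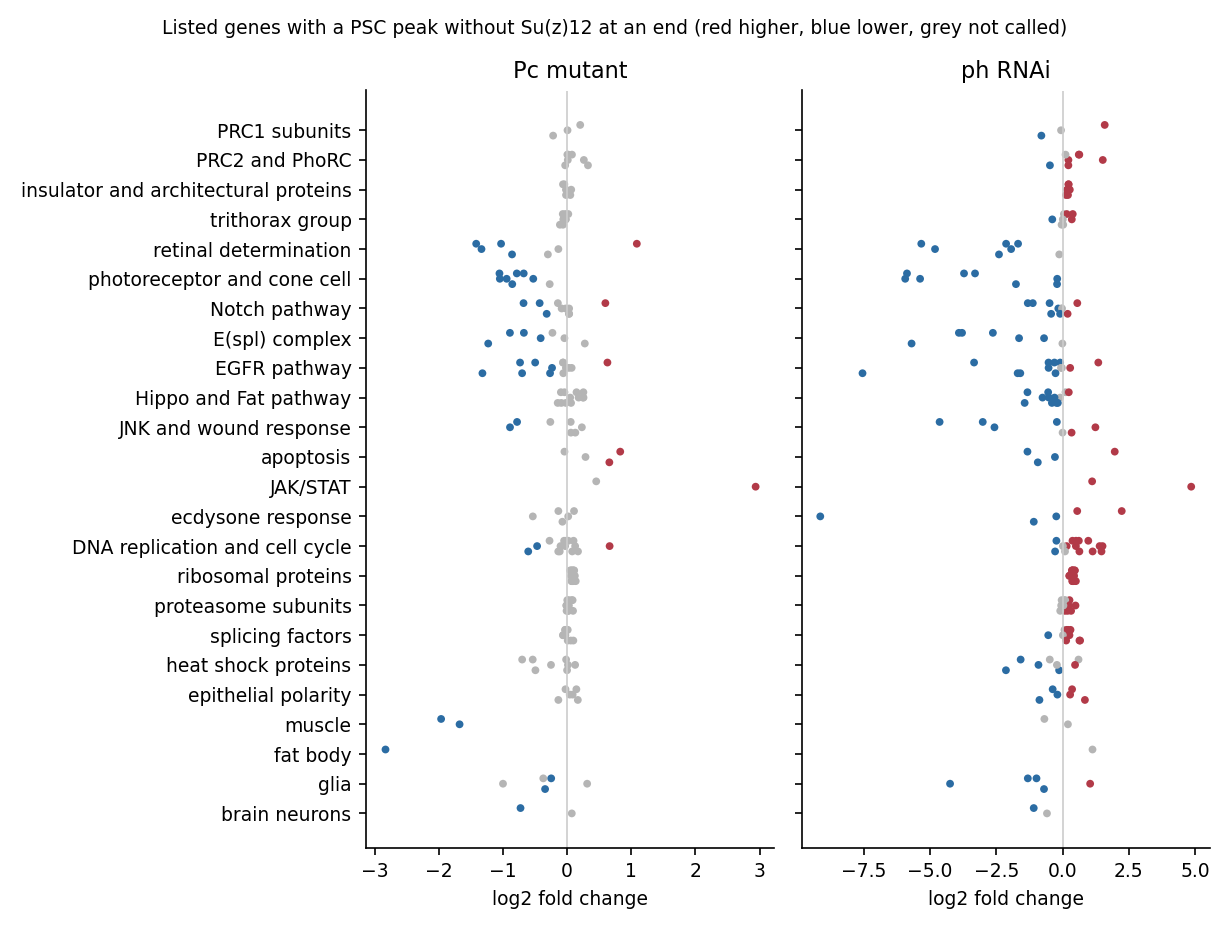
Log2 fold change in the authors' deposited tables (x axis) of each listed gene with a region at an end, by list (y axis), for Pc (left) and ph (right). Red points were called higher, blue lower and grey not called; all 8 photoreceptor and cone cell genes were lower for ph, and 7 of 8 for Pc.

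Most genes had a single region. There were 2964 genes with 1, 533 with 2 and 98 with 3 or more, and 297 with a region at each end. Close regions were counted separately, also where they may be parts of 1 peak, as at Hsp27 and Psc. Among the protein-coding genes with 4 regions, foxo, the forkhead factor of insulin signalling, fell by 1.77 ± 0.07 for ph, and ptc, the Hedgehog receptor gene, fell by 0.59 ± 0.10 for Pc and rose by 0.37 ± 0.05 for ph in the authors' deposited tables. The rise of ptc reverses when centred on the ribosomal protein median. These 2 genes were chosen after their values were seen. Among tested genes with 1, 2, and 3 or more regions, 11.1%, 15.9% and 18.0% were called for Pc and 76.0%, 80.8% and 88.5% for ph, against 9.88% and 66% of all genes, in the authors' deposited tables. Median mean counts rose alongside, from 1407 to 2315 and 3223 in the Pc table. Within the highest band of mean count, the shares for 1, 2, and 3 or more regions were 12.0%, 15.6% and 21.6% (8 of 37 genes) for Pc, against 11.6% of all genes there, and 84.0%, 86.0% and 89.7% for ph, against 84.7%, in the authors' deposited tables. The shares did not rise with the fold of a region. Where the strongest region of a gene reached a fold of 3, 6 of 118 tested genes (5.08%) were called for Pc and 76.9% for ph. Where it did not, the shares were 12.2% and 77.0%, in the authors' deposited tables. These differences were not tested.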

How the data were processed

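PSC and Su(z)12 ChIP-seq peak lists and 2 tables of expression comparisons were used. Per the submitters' processing notes the build was dm6, and MACS2 2.1.1.20160309 and DESeq2 1.22.1 were among the tools, with no settings given. The sources used here do not give whether reads or peaks of both replicates were pooled, where reads with several matches were placed, the peak control, or the strand setting of counting. In the deposited peak lists the score is a whole number made by the authors from the −log10 q value. The fold of a peak and its −log10 p and q values are the authors' and served to describe and rank peaks of 1 list, or to filter them. The summit score in the deposited files was not used. The deposited log2 fold changes and their SEs, the Wald score, the p-values and the adjusted p-values come, per the file headers, from the authors' DESeq2 run. The mean normalized count, a signal averaged over libraries, is also as the authors deposited it, so depth per sample and counting precision are unknown.

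Peaks and genes of Release 6 (RefSeq table without strand) were joined on the 6 arms with Python 3.11.15, numpy 2.4.6, pandas 2.3.3 and scipy 1.17.1. Sharing meant at least 1 bp. Calls used the authors' adjusted p under 0.05. The z test of the Pc minus ph difference was tested on simulated data. The 25 lists (416 genes) cover Polycomb, insulator and trithorax proteins, retina, signalling, cell death, ecdysone, growth, housekeeping, polarity and other cell types. Members and lists were chosen with earlier results of these data known.

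Named genes come from these rules: genes at the 10 regions of highest fold; the 10 largest increases and decreases among calls with a mean count of at least 50; up to 3 called genes per list and comparison with the smallest adjusted p; all PRC1, PRC2, PhoRC and insulator genes with a region; and up to 5 per pattern of signs called in both. Where others are named, the text says so. No genome sequence was used here.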

Additional observations from a re-analysis of the deposited data

Results flagged for a closer look

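The rule for the regions used the merged Su(z)12 list, and the lists of the single Su(z)12 replicates were outside it. In those, 30 of the 2470 regions overlapped a Su(z)12 peak, in 1 replicate each. The regions of highest fold among them were those at Hand and CYLD (PSC fold 3.91, Su(z)12 fold 1.97 in replicate 1), at cno and Prosbeta2R2 (2.81, and 2.46 in replicate 1) and at mthl1 and SNRPG (2.66, and 2.87 in replicate 2).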

How the results depend on the processing

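The number of regions was 892 with PSC peaks found in both replicates, and 1561 to 2324 with the lists of a single replicate. Their share of PSC peaks was 44.7% with a reciprocal overlap of at least 50%, 34.5% both for PSC peaks found in both replicates and for a window of 500 bp, 48.2% for 2000 bp, 36.2% for protein-coding genes only, and 42.5% to 48.6% with the lists of a single replicate. The other settings for regions moved the number by less than 1.5 times, and the count of 185 tRNA genes stayed within 1.5 times under the 7 settings tried, which were chosen after seeing the data. Genes higher for Pc numbered 73 at an adjusted p under 0.01. With regions found in both PSC replicates, 46 were higher and 82 lower for Pc, and 409 and 445 for ph, as fewer genes (1116 and 1109) were tested. With the nearest gene alone, 617 were higher for ph, of 1754 tested. Centred on the median of all genes, the ph median was 0.025. Centred on the ribosomal protein median, the ph counts were 379 higher and 1827 lower and the median -0.44. Under that centring the ph values of 11 named genes reversed: Chro -0.18, Iswi -0.057, Pcl -0.18, Sfmbt -0.19, cg -0.23, mod(mdg4) -0.28, osa -0.021, ptc -0.036, pzg -0.18, su(Hw) -0.13 and z -0.20. No paired analysis was possible because the deposited tables hold comparisons and no samples. For the same reason RNA replicates could not be left out. Gene starts alone and sequence words in the regions were not run, as strand and genome sequence were not used here. With 2 Pc replicates the median SE of these genes was 0.12, against 0.06 for ph, so small Pc changes were less detectable.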
